A study of Mus musculus with 4 samples.

Results

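Vascular endothelial growth factors (VEGF) and their receptors were followed as 10 genes, taken by symbol from the 55450 genes of the count matrix. The ligands were Vegfa, Vegfb, Vegfc, Vegfd and Pgf (placental growth factor), the receptor tyrosine kinases were Kdr (VEGFR2), Flt1 (VEGFR1) and Flt4 (VEGFR3), and the co-receptors were the neuropilins Nrp1 and Nrp2. All 10 were found once in the matrix and had UMIs (unique molecular identifiers, tags that let molecules be counted instead of reads) in cells of every library.

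The family controls the growth of blood and lymphatic vessels. VEGF-A signals to blood vessel endothelium mainly through VEGFR2, while VEGFR1 binds VEGF-A, VEGF-B and PlGF and in part acts as a decoy. VEGF-C and VEGF-D activate VEGFR3, a receptor best known from lymphatic vessels. Neuropilins bind VEGFs as well as class III semaphorins and pair with the kinase receptors. In tumours, hypoxia is a classic inducer of VEGF-A.

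The cells came from tumours of 4T1, a mouse mammary carcinoma line, of which 1000000 cells were placed in the flank of each female BALB/c mouse aged 6 to 8 weeks. Each sample had near-infrared light (980 nm, 1.0 W per cm2) for 5 min daily from day 8 to day 10, and tumours were collected on day 13. They differ in what was given into a vein on day 7. This was PBS for 2 samples and a T-cell-inspired oncolytic system (TIOs) for 1 sample of the group TIOs+NIR3. TIOs are macrophages loaded with light-activated particles and frozen in liquid nitrogen, made to lyse cancer cells. The remaining sample, titled PBS but described with TIOs in its protocol, was left unassigned. The matrix joins 4 libraries that no source used here links to a sample, so treatments were not compared, the pooled cells count as 1 sample without replicates, no test was made, and libraries 1 to 4 are each of unknown treatment.

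Of 33064 barcodes, 32133 held at least 300 genes and at most 15% mitochondrial UMIs, with 7847, 8614, 6783 and 8889 cells in libraries 1 to 4 and median depths of 11698, 2641.5, 2695 and 7182 UMIs. Pairs of libraries shared 11 to 23 barcode sequences, at most 0.333% of the smaller library. Cells were gated on marker genes into 13 types. The gate held 9410 neutrophils, 5086 monocytes, 3978 macrophages, 3679 fibroblasts, 4001 tumour or epithelial cells, 1098 T cells, 528 dendritic cells, 283 endothelial cells and 165 pericytes or smooth muscle cells. The study describes a sort for CD45 (Ptprc), yet only 15.2% of the endothelial, 29.1% of the fibroblast and 12.7% of the tumour or epithelial cells held a Ptprc UMI, against 85.0% of the monocytes. The number of non-leucocytes after such a sort does not give their share of the tumour. Of the tumour or epithelial cells, 3802 came from library 1 and 198 from library 2.

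Levels are given in CPM (counts per 1000000 UMIs, summed over the cells of a type), with exact Poisson 95% intervals. Shares carry exact Clopper-Pearson 95% intervals. Both cover counting error only, and since the UMIs of 1 cell are not independent the true uncertainty is larger. Transcripts were counted near their 3′ end, so a gene is compared between cell types and not with other genes.

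**Figure D1:**
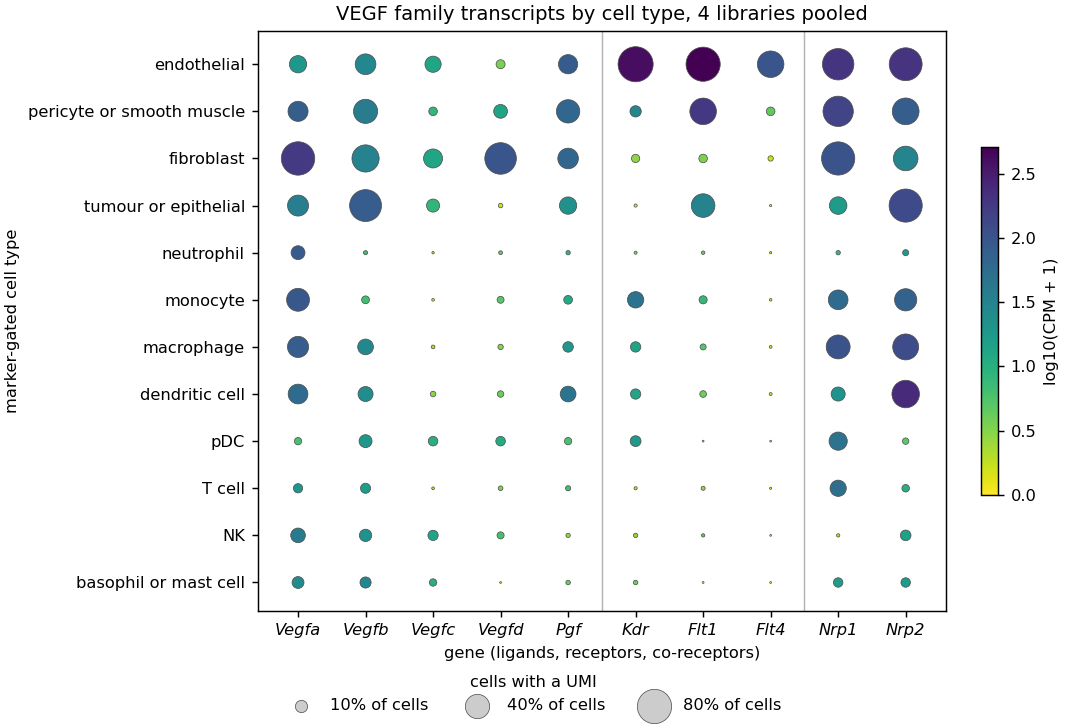
Each dot is a gene (x axis) in a marker-gated cell type (y axis), with the 4 libraries pooled. Its area gives the percent of cells with a UMI and its colour the level as log10(CPM + 1). Kdr, Flt1 and Flt4 were highest in endothelial cells, Vegfa and Vegfd in fibroblasts, Vegfb in tumour or epithelial cells and Nrp2 in dendritic cells.

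The 3 kinase receptors had their highest level in endothelial cells, in all 4 libraries. Kdr (chromosome 5, 75932827 to 75978458, minus strand, build GRCm38), the main signalling receptor for VEGF-A, reached 419 CPM (403 to 436) and had a UMI in 83.7% of these cells. The 283 endothelial cells, 0.881% of the kept cells, held 45.2% of its 5483 UMIs (43.9 to 46.6%). In libraries 1 to 4 its endothelial level was 427, 429.7, 358 and 448 CPM, and of the counting intervals only those of libraries 2 (409.6 to 450.4) and 3 (321 to 398) were apart. The next types were monocytes at 47.1 CPM (45.0 to 49.2), then pericytes or smooth muscle cells at 27.7, and in tumour or epithelial cells it lay at 0.211 CPM.

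Flt1 (chromosome 5, 147561604 to 147726011, minus strand), which encodes the receptor shared by VEGF-A, VEGF-B and PlGF, reached 510.1 CPM (492 to 529) in endothelial cells and was detected in 79.5% of them. These held 40.2% of its 7505 UMIs (39.1 to 41.3%). Its endothelial level was 725, 502, 371 and 650.2 CPM in libraries 1 to 4, so the libraries differed in Flt1 by more than in Kdr, and the intervals of libraries 1, 2 and 3 did not overlap. Kdr UMIs per Flt1 UMI in endothelial cells were accordingly 0.589, 0.856, 0.966 and 0.689. The libraries also differed in their kinds of endothelial cells, given below, and the part of this mix in the Flt1 differences was not tested.

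Flt4 (chromosome 11, 49609263 to 49652739, plus strand), the VEGF-C and VEGF-D receptor, was the most restricted member among the receptors. It had 764 UMIs in all, of which endothelial cells held 75.9% (72.7 to 78.9%), and its endothelial level of 98.0 CPM (90.2 to 106) was followed by 3.55 CPM in pericytes or smooth muscle cells and by less than 1 CPM in each of the other types. The endothelial level was 65.7, 77.3, 224.7 and 45.0 CPM in libraries 1 to 4, highest in library 3.

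A cell entered the endothelial gate with at least 3 of 9 marker genes and 8 of their UMIs per 10000. High levels of these 9 genes there follow from this rule. They summed to 5105 CPM, and Pecam1 and Cdh5 among them were each detected in 95.8% of the cells. No VEGF family gene was used for gating. Kdr and Flt1 were found together in 199 of the 283 cells (70.3%, 64.6 to 75.6%), any of the 3 receptors in 265 cells, and Flt4 without either other receptor in 2 cells. In 20 cells neither Kdr nor Flt1 was detected, which at these depths is no proof of absence.

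Kdr and Flt1 thus had their highest level in the same gated cell type. The sequences before their starts are shown as a description, and their part in these levels was not tested. RefSeq promoter windows (GRCm38.p6) were matched for all 10 members, as 12 windows. The bases upstream of the annotated gene are printed 5′ to 3′ on the gene's strand, with each GGAA or TTCC in capitals, the core of sites for ETS factors, a family with known roles in endothelium. Kdr is shown as chr5:75978459-75978705 and Flt1 as chr5:147726012-147726261, both on the minus strand.
Kdr: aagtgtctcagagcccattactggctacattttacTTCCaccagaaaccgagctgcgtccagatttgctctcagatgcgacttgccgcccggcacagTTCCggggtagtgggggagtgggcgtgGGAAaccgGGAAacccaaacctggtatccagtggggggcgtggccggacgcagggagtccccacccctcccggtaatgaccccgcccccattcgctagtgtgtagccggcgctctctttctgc
Flt1: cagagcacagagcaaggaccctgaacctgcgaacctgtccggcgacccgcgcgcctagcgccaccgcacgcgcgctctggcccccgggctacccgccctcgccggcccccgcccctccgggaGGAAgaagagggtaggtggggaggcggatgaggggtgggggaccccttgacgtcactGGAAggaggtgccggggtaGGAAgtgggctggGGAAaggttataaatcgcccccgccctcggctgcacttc
In the full 250 bases before the start, each of these 2 genes held 4 such cores. Flt4 held 2, but its window, like those of Nrp1 and Pgf, lies inside the annotated gene. Of all 32851 promoter windows of this length, 93.4% held at least 1 on either strand, and 33.4% held 4 or more, so these counts are common. The core of the hypoxia response element, ACGTG or CACGT, was in 16.6% of all windows. Among the members it was found once, in the window of the start of Vegfa that lies further into the gene, and in none of the other 11 windows. Bases further upstream were not searched.

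**Figure D2:**
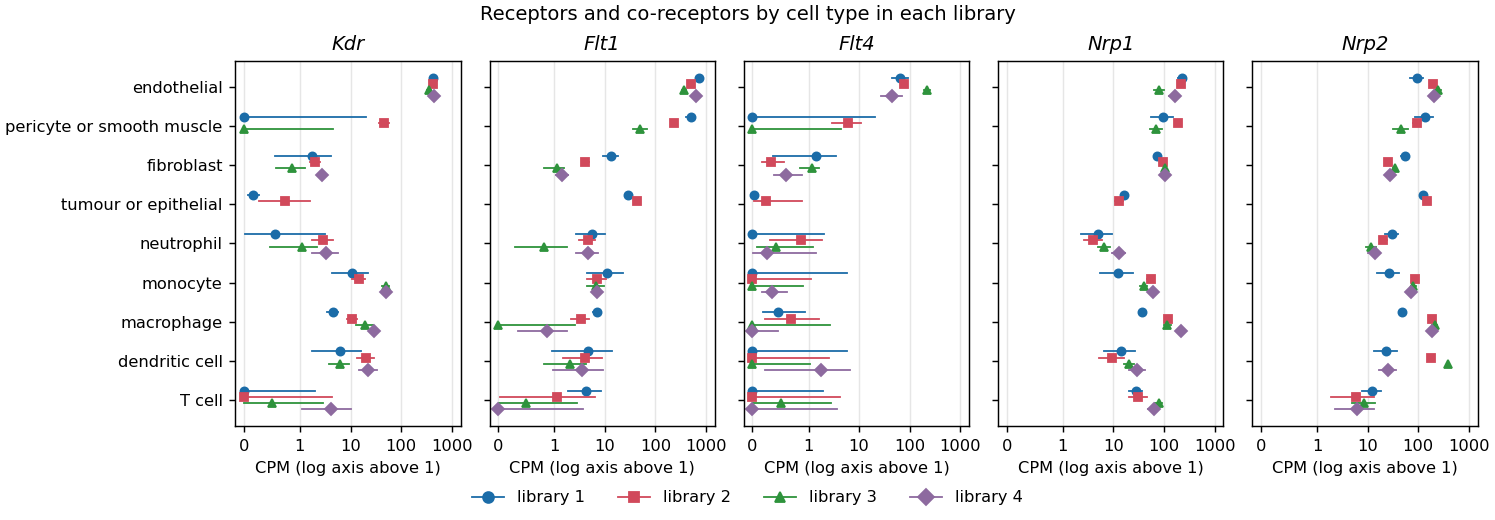
Points give the level of each receptor and co-receptor in CPM (x axis, logarithmic above 1) by cell type (y axis) in each library with at least 15 cells of the type, and lines are exact Poisson 95% intervals. Kdr, Flt1 and Flt4 were highest in endothelial cells in every library, and Kdr in monocytes was higher in libraries 3 and 4 than in libraries 1 and 2.

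Within the endothelial gate the receptors were divided by vessel type. Cells with at least 2 genes of a list were assigned in the order lymphatic, tip, arterial and venous. A cell with 2 genes of an earlier list was not counted in a later group. Cells with UMIs of at least 2 lymphatic genes (Prox1, Mmrn1, Reln, Ccl21a and Lyve1) numbered 30, and 17 of these came from library 3, 11 from library 2 and 2 from library 1. They carried Flt4 at 537 CPM (482 to 597), against 46.3 in the 124 cells with tip cell genes, 34.0 in the 34 with arterial genes and 31.9 in the 50 with venous genes. Flt1 went the other way. It lay at 121 CPM (96.0 to 152) in the lymphatic-marked cells, against 541, 695 and 562 in the tip, arterial and venous ones. The lymphatic-marked cells were 17 of the 43 endothelial cells of library 3 and 11 of the 164 of library 2. Library 3 had the lowest endothelial Flt1 level, and the part of these cells in it was not tested.

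Kdr was nearly level across these cells, from 368 CPM in venous-marked to 449 in arterial-marked cells, with overlapping intervals, and 436 in lymphatic-marked cells. The neuropilins were divided as well. Nrp1 was at 368 CPM (310.1 to 434) in arterial-marked and at 48.3 (32.8 to 68.5) in lymphatic-marked cells, while Nrp2 was at 394 (343 to 452) in venous-marked and 344 (300.3 to 393) in lymphatic-marked cells, above the 148 of the tip-marked cells. The 45 cells with none of these marker pairs were shallow (median 2282 UMIs) and held Flt4 at 65.6 CPM.

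The lymphatic-marked cells held 59.5% of the endothelial Flt4 UMIs. Without them, Flt4 in endothelial cells was 44.5 CPM (39.0 to 50.6) in the pool and 64.9, 37.2, 74.1 and 45.0 in libraries 1 to 4. The interval of library 3 (53.8 to 99.5) then overlapped those of libraries 1 and 4. That of library 2 (31.3 to 43.9) stayed apart from those of libraries 1 and 3. The subsets were cut on detection, which favours deep cells, and the tip-marked cells were the deepest at a median of 25064.5 UMIs.

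**Figure D3:**
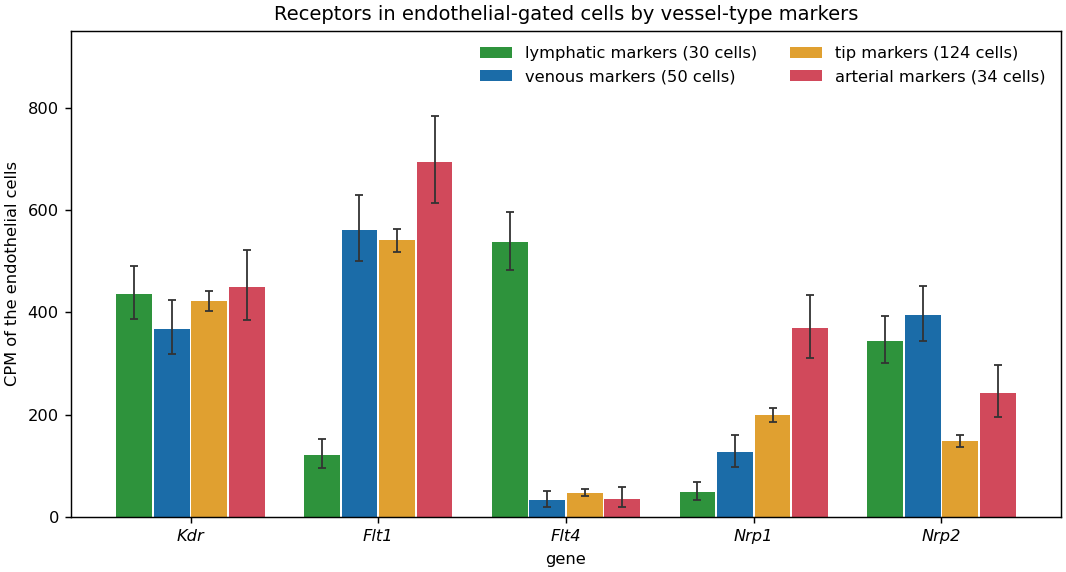
Bars give the level in CPM (y axis) of the 5 receptor and co-receptor genes (x axis) in endothelial-gated cells with at least 2 lymphatic, venous, tip or arterial marker genes, with the 4 libraries pooled and exact Poisson 95% intervals as error bars. Cells were assigned in the order lymphatic, tip, arterial and venous, each to the first group that they met. Flt4 stood at 537 CPM in the 30 lymphatic-marked cells and at 46.3 CPM or less in the others. In those others Flt1 was at 541 CPM or more.

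Outside the endothelium, monocytes had the second level and share of Kdr in the pooled cells, which rested on library 4 with 1629 of their 1885 Kdr UMIs. They held 34.4% of its UMIs (33.1 to 35.7%), and 18.1% of them had a Kdr UMI, against 0.455% of T cells and 0.404% of neutrophils, types not known for Kdr. Median depths were 7714, 3890.5 and 1806 UMIs. At 1000 UMIs per cell the shares were 4.21% of monocytes, 0.0934% of T cells and 33.2% of endothelial cells. The monocyte level was 10.9, 14.7, 49.2 and 50.8 CPM in libraries 1 to 4, so libraries 3 and 4 stood above libraries 1 and 2. Monocytes with a Kdr UMI held the 9 endothelial markers at 21.2 CPM and those without at 24.6 CPM, far from the 5105 CPM of the endothelial gate. Monocytes with and without Chil3, a gene of classical monocytes, lay at 45.7 and 48.7 CPM in the pool, and in library 2 at 6.63 (2.86 to 13.1) and 19.3 (13.8 to 26.3). Macrophages held Kdr at 4.46, 10.7, 19.1 and 29.2 CPM in libraries 1 to 4, with intervals below those of monocytes in libraries 3 and 4 and overlapping them in libraries 1 and 2. In library 2, pericytes or smooth muscle cells (46.6 CPM) and dendritic cells (20.3 CPM) lay above monocytes, the dendritic cells with an interval overlapping that of monocytes. In library 1 macrophages held 69 Kdr UMIs and monocytes 7. Flt1 did not go with it, at 7.09 CPM, and Kdr UMIs per Flt1 UMI were 7.44 and 7.18 in the monocytes of libraries 3 and 4.

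The endothelial share of Kdr UMIs moved with the libraries counted. Without library 4 it was 71.3% and the monocyte share was 8.00% (7.09 to 9.00%). Without library 2, which supplied 164 of the endothelial cells, it was 23.1% and monocytes held the most UMIs, at 56.3%. With each cell thinned to 1000 UMIs the share was 25.1% and monocytes again held the most. By level, endothelial cells led in each library.

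In the pooled cells, tumour or epithelial cells came second for Flt1 by UMIs. They held 34.3% of them, and 7.84% (7.08 to 8.67%) without library 1, at a level of 30.2 CPM (29.1 to 31.4), which was 28.9 CPM in library 1 and 42.9 CPM in library 2. Of these cells 37.7% had a Flt1 UMI and 0.450% a Kdr UMI, and in library 1 they held 2221 Flt1 and 12 Kdr UMIs. Tumour or epithelial cells with and without Flt1 carried the endothelial markers at 23.9 and 20.8 CPM. By level, pericytes or smooth muscle cells came second at 187 CPM (171 to 203), with 499.6, 229 and 49.7 CPM in libraries 1, 2 and 3. There the endothelial markers moved with Flt1, at 1002 CPM in the cells with a Flt1 UMI and 253 CPM in those without, and for Kdr at 3129 and 354 CPM (14 and 151 cells). All 78 Kdr UMIs of pericytes or smooth muscle cells in libraries 1 to 3 were in library 2. The part of endothelial transcripts in the result was not tested. Without library 2 the endothelial share of Flt1 UMIs was 24.2% and tumour or epithelial cells held the most, at 53.7%.

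Nrp1 (chromosome 8, 128358604 to 128503363, plus strand), the co-receptor of VEGF-A and of semaphorin 3A, had a wide spread over cell types. Its level was 192 CPM (181 to 204) in endothelial cells, 145 (131 to 160) in pericytes or smooth muscle cells, 104 in macrophages and 102 in fibroblasts, the last 2 with overlapping intervals. Monocytes followed at 58.5, T cells at 52.4 and pDCs (plasmacytoid dendritic cells) at 46.4 CPM, which overlapped with their neighbours in this order, and NK cells were lowest at 0.896 CPM. Fibroblasts held 52.2% of the UMIs. Libraries did not share this order. In libraries 1 and 2 endothelial cells led at 232 and 218 CPM, in libraries 3 and 4 macrophages led at 117 (99.8 to 136, overlapping fibroblasts at 106) and 217 CPM, and macrophages of library 1 lay at 36.2 CPM.

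Among macrophages, those with a UMI of Cd163, a scavenger receptor, held Nrp1 at 191 CPM and those with neither Cd163 nor Arg1 at 61.4 CPM. Within libraries the 2 values were 95.3 and 38.3, 138 and 93.4, 146 and 103, and 265 and 185 CPM for libraries 1 to 4, so the Cd163-positive cells were higher in each, with overlapping intervals in library 3. Library 1 held 1019 of the 1525 cells with neither gene and 28 of the 1085 positive cells. Among T cells, Nrp1 was at 69.3 CPM in those with neither Foxp3 nor Cd8a, 31.6 CPM with Foxp3, the gene of regulatory T cells, and 27.8 CPM with Cd8a. Of the 252 cells with Cd8a, 237 came from library 1, where they and the cells with neither gene lay at 28.9 and 28.2 CPM. In library 3 the values were 90.6 CPM (76.2 to 107) with neither gene and 47.5 CPM (29.4 to 72.7) with Foxp3.

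Nrp2 (chromosome 1, 62703285 to 62818695, plus strand), the co-receptor of VEGF-C and of semaphorin 3F, was highest in dendritic cells, at 244 CPM (233 to 257), ahead of endothelial cells at 198 (187 to 210.0). Tumour or epithelial cells (126) and macrophages (122) came next with overlapping intervals in the pool. Tumour or epithelial cells held 39.5% of the Nrp2 UMIs, and 7.74% without library 1. Library 1 held 3802 of these 4001 cells but 1537 of the 3978 macrophages. The 2 pooled levels thus rest on unlike mixes of libraries. Its gene overlaps a gene on the same strand and an antisense gene in the annotation, and how UMIs in these overlaps were assigned was not examined. The dendritic level was 23.4, 177, 385 and 25.3 CPM in libraries 1 to 4, and dendritic cells led in library 3 only.

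Dendritic cells also differed by kind. Those with Ccr7, the receptor that guides dendritic cells to lymph nodes, carried Nrp2 at 438 CPM (416 to 461) and 70.3% of these 330 cells had a UMI. Ccr7-negative cells with Xcr1 or Clec9a, markers of cross-presenting dendritic cells, carried it at 4.30 CPM (1.58 to 9.37, 91 cells), though they were deeper. In library 2 the 2 groups lay at 280.1 and 3.60 CPM and in library 1 at 59.7 and 7.16 CPM. Of the Ccr7-positive cells 234 came from library 3, where the level was 526 CPM, so the Ccr7-positive cells themselves differed between libraries. Library 4, with too few Ccr7-positive cells for a level, had 3.37 CPM in the Xcr1 or Clec9a kind and 33.5 CPM in cells with Cd209a and none of the other markers. Macrophages had Nrp2 at 47.2, 190.4, 213 and 189.6 CPM in libraries 1 to 4, low in library 1 as for Nrp1.

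**Figure D4:**
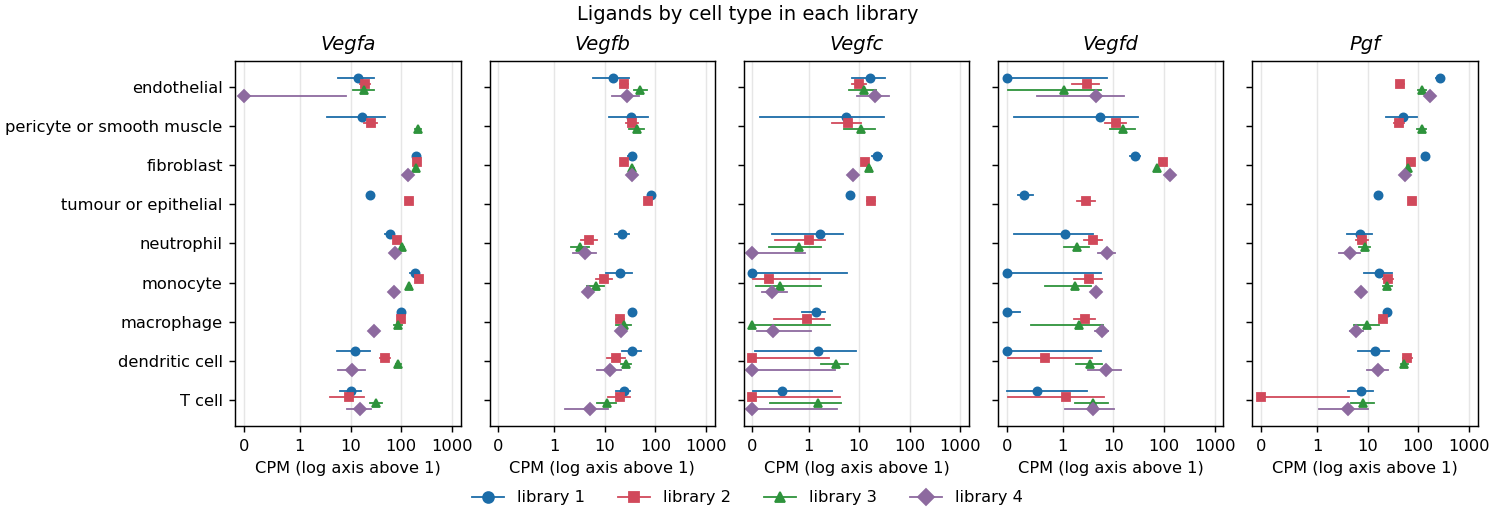
Points give the level of each ligand in CPM (x axis, logarithmic above 1) by cell type (y axis) in each library with at least 15 cells of the type, and lines are exact Poisson 95% intervals. Vegfd was highest in fibroblasts in all 4 libraries, from 26.6 to 134 CPM, whereas Vegfa was spread over fibroblasts, monocytes, neutrophils and macrophages.

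Of the ligands, Vegfa (chromosome 17, 46016993 to 46032369, minus strand), the main angiogenic factor, had a UMI in 30.3% of all kept cells. Fibroblasts had the highest pooled level at 175 CPM (173 to 177), before monocytes (91.0 to 97.1), neutrophils at 87.1, macrophages at 81.3 and pericytes or smooth muscle cells at 79.5, and in this order each of these 4 overlapped the next. Endothelial cells, which bore the receptors, had 17.4 CPM, and pDCs 5.16. The fibroblast level was 196, 202, 194 and 134 CPM in libraries 1 to 4. Monocytes held 185, 231, 146 and 71.6 CPM, so they were above fibroblasts in library 2 (231, 215 to 248, against 202) and below them in library 4, where monocytes were most numerous. In library 3 the 47 pericytes or smooth muscle cells stood highest at 217 CPM (186 to 251), overlapping fibroblasts, against 16.7 and 25.1 CPM in libraries 1 and 2. Tumour or epithelial cells had 24.2 CPM in library 1 and 144 CPM in library 2. Neutrophils had 59.3, 82.8, 105 and 74.7 CPM in libraries 1 to 4, and macrophages 98.5, 102, 85.8 and 28.8 CPM. The pooled overlaps thus did not hold in every library. Macrophages were above neutrophils in libraries 1 and 2 and below them in library 4, with intervals apart. Monocyte intervals lay above those of both types in libraries 1 to 3.

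Fibroblasts held 53.4% of the 37592 Vegfa UMIs (52.9 to 53.9%), but they were also the deepest type with a median of 28915 UMIs, against 1806 in neutrophils. With each cell thinned to 1000 UMIs their share was 22.4% and neutrophils, the most numerous type, held the most. At that depth Vegfa was detected in 15.0% of fibroblasts, 10.1% of monocytes, 7.26% of neutrophils and 1.12% of T cells. Cells that passed no gate held Vegfa at 152 CPM and were not given a type.

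Vegfa was higher in cells with more transcripts of a fixed list of 14 hypoxia response genes (among them Slc2a1, Bnip3, Egln3 and Car9). Cells thinned to 1000 UMIs were divided, inside each cell type and library with at least 50 cells, into those above the median of the list and those at or below it. Of the 32 such groups of cells, Vegfa was higher above the median in 25 and lower in 5. Counting intervals were apart in 13, and in each of these Vegfa was higher above the median. Fibroblasts went from 158 to 367, 129 to 280.3, 139 to 242 and 101 to 269 CPM in libraries 1 to 4, with overlapping intervals in library 1. Monocytes of library 2 went from 167 to 482 CPM and tumour or epithelial cells of library 2 from 58.8 to 271 CPM. Neutrophils were at 98.9 and 99.0 CPM in library 3, although they went from 35.0 to 90.6 CPM in library 1. Dendritic cells of library 3 went from 99.3 to 90.1 CPM, on 15 and 10 UMIs with overlapping intervals, and were counted as lower. Endothelial cells had too few Vegfa UMIs to compare, with 2 and 0 in library 1 and 2 and 1 in library 2. They were counted as lower, as were dendritic cells of library 4 (3 and 0 UMIs) and T cells of library 1 (3 and 1). Groups counted as higher were as thin in T cells of library 2 (0 and 1 UMIs), NK cells of library 1 (1 and 3) and pericytes or smooth muscle cells of library 2 (1 and 2). The nearly level neutrophils of library 3 were also counted as higher. The counts of 25 and 5 thus include differences of few UMIs.

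**Figure D5:**
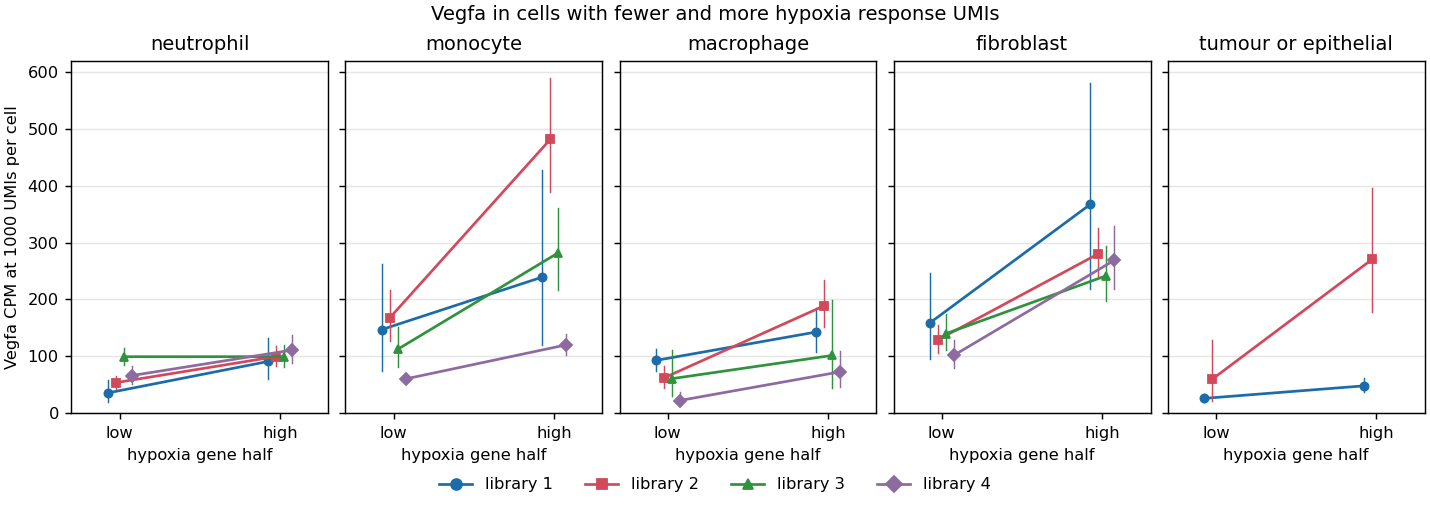
Each line joins the Vegfa level in CPM (y axis) of cells at or below and above the median UMIs of 14 hypoxia response genes (x axis, low and high), for 1 library and cell type at 1000 UMIs per cell, with exact Poisson 95% intervals. Most lines rose to the right, in tumour or epithelial cells of library 2 from 58.8 to 271 CPM, and neutrophils of library 3 lay level at 98.9 and 99.0 CPM.

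Vegfd (chromosome X, 164373378 to 164402650, plus strand), a ligand of VEGFR3, was mostly a fibroblast gene. Fibroblasts held 93.0% of its 12422 UMIs (92.5 to 93.4%) at 101 CPM (98.9 to 103), and it was detected in 67.7% of them. The next type was pericytes or smooth muscle cells at 12.4 CPM (8.65 to 17.3). With each cell thinned to 1000 UMIs, fibroblasts held 81.1% of the Vegfd UMIs (77.3 to 84.6%). They led in every library, at 26.6, 95.6, 72.4 and 134 CPM. Neutrophils gave 1.11, 4.04, 1.93 and 7.34 CPM in the same libraries. In fibroblasts with Dpt and without Lrrc15, a pattern known from resting fibroblasts, Vegfd was at 110 CPM, and it was at 91.9 CPM with Lrrc15, a gene of activated tumour fibroblasts. In library 1, where 137 of 171 fibroblasts had Lrrc15, these lay at 18.2 CPM against 149 CPM in the 15 cells with Dpt alone. In libraries 2, 3 and 4 the Lrrc15-positive cells were at 92.2, 89.4 and 112 CPM, against 106, 71.3 and 142 CPM for Dpt alone, so the order did not hold in library 3.

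Vegfa and Pgf had the opposite order in the pooled fibroblasts. Vegfa was at 202 CPM with Lrrc15, 144 CPM with Dpt alone and 329 CPM in the 425 cells with neither, and Pgf at 76.3, 46.8 and 180 CPM. In library 4, however, Vegfa was at 120.5 CPM with Lrrc15 and 119.6 CPM with Dpt alone, and Pgf in library 3 was at 57.2 and 54.5 CPM with overlapping intervals. In library 1 the 19 cells with neither gene had Pgf at 29.6 CPM, below the 149.9 CPM with Lrrc15. The cells with neither gene were also the shallowest, at a median of 9484 UMIs.

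Pgf (chromosome 12, 85166635 to 85177790, minus strand), the ligand of VEGFR1 alone among the receptors, was highest in endothelial cells at 84.6 CPM (77.4 to 92.4). Pericytes or smooth muscle cells (66.0) and fibroblasts (65.1) followed and in the pool did not differ beyond counting error. Their intervals were apart in libraries 1, 2 and 3, and the order changed. Pericytes or smooth muscle cells were below fibroblasts in library 1 (22.8 to 94.8 against 122 to 149 CPM) and library 2 (42.4 against 72.6 CPM). In library 3 they were above fibroblasts (116 against 62.6 CPM). Library 4 had too few pericytes or smooth muscle cells for a level. Endothelial cells had 265, 44.3, 121 and 173 CPM in libraries 1 to 4 and in library 2 lay below tumour or epithelial cells (75.9) and fibroblasts (72.6). Pgf was concentrated in few cells. In fibroblasts the 10% of cells with the most Pgf UMIs held 86.0% of them and 28.6% of cells had any, whereas the 10% of fibroblasts with the most Nrp1 UMIs held 35.4% of those and 75.0% had any. In endothelial cells 25.1% had a Pgf UMI, up to 54 in 1 cell, and the 29 cells with the most held 85.2% of the UMIs. The level in library 4 came from 2 of 17 endothelial cells. Tip-marked cells carried it at 96.9 CPM, and at 339 CPM in library 1, while venous-marked cells were at 13.1 CPM.

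Vegfb (chromosome 19, 6982473 to 6987651, minus strand), a ligand of VEGFR1 tied to lipid transport and cell survival, was highest in tumour or epithelial cells at 82.0 CPM (80.1 to 83.9), above pericytes or smooth muscle cells at 36.9 and fibroblasts at 31.1. The level was 83.3 CPM in library 1 and 69.9 CPM in library 2. Tumour or epithelial cells held 49.1% of its UMIs, and 8.76% without library 1, where fibroblasts then held the most. Neutrophils and monocytes were low at 5.72 and 5.54 CPM.

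Vegfc (chromosome 8, 54077606 to 54187096, plus strand), the main lymphangiogenic ligand, had few UMIs to compare. Of its 2692 UMIs 51.6% lay in fibroblasts, at 12.1 CPM, and NK cells (12.5), endothelial cells (9.07 to 14.8) and pDCs (9.03) were not apart from these by counting error. Macrophages and monocytes, at 1.00 and 0.349 CPM, were lower. The leading type was a different one in each library, with 1 to 9 Vegfc UMIs in each. Fibroblasts, with more UMIs, had 22.8, 13.3, 15.5 and 7.65 CPM in libraries 1 to 4. Tumour or epithelial cells held 24.3% of the Vegfc UMIs at 7.70 CPM. Their level was 6.67 CPM in library 1 and 17.3 CPM (14.5 to 20.4) in library 2. Genes that process VEGF-C differed in their leading type. Ccbe1 was highest in tumour or epithelial cells (58.9 CPM, a lead held in 1 library), before fibroblasts (23.1 CPM). Pcsk5 was highest in fibroblasts (198 CPM, a lead held in 4 libraries), which also held most Vegfc UMIs. Furin was highest in basophils or mast cells (1281 CPM, 85 cells), and the protease gene Adamts3 had 177 UMIs in all.

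The companions of the receptors were read from fixed lists. The 11 angiopoietin and Notch genes were listed as endothelial genes, so a lead in endothelial cells is partly built in. Of these 11, 9 had their highest level in endothelial cells, each of them in all 4 libraries. Of all 13464 genes with at least 500 UMIs, 12.2% were highest in endothelial cells, 7.4% in neutrophils and 9.8% in fibroblasts. The 9 listed genes included Tek (109 CPM), the angiopoietin receptor, its ligand Angpt2 (99.9 CPM), the Notch ligand Dll4 (109 CPM) and the apelin pair Apln (229 CPM) and Aplnr (270.5 CPM). The list also held Tie1, which was used for the gate, and Apln, Dll4 and Hey1, which marked tip or arterial cells within it. Angpt1, the stabilising ligand of Tek, lay outside the endothelium, with 43.5 CPM in basophils or mast cells, 20.5 CPM in fibroblasts and 0.845 CPM in endothelial cells. Of 12 semaphorins and plexins, 7 were highest in endothelial cells, with Plxnd1 at 330 CPM and Sema3f, a ligand of neuropilin 2, at 200.4 CPM. The lead held in 4 libraries for 4 of the 7, in 3 for Sema3a and Sema3g and in 1 for Sema3d, while Sema3c led in fibroblasts (68.2 CPM).

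Of the 6 oxygen sensing genes, Hif1a was at 492 CPM in T cells, 383 CPM in fibroblasts and 85.3 CPM in tumour or epithelial cells, and Epas1, which encodes HIF-2α, was at 467 CPM in pericytes or smooth muscle cells and 232 CPM in endothelial cells. Of the 14 hypoxia response genes, 5 were highest in neutrophils, led by Hilpda at 1439 CPM, and 4 in fibroblasts. The lead held in all 4 libraries for Slc2a1, Hilpda and P4ha1 and in 2 for the other 6 of these genes. Adm was nearly level in fibroblasts (94.4 CPM) and endothelial cells (92.6 CPM).

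Over the 32 units of a cell type in a library with at least 50 cells, the log2(CPM + 10) of the members was set beside that of 13464 genes with at least 500 UMIs. The units share libraries and differ in depth, and the r values are descriptions. Endothelial cells entered with libraries 1 and 2 only. The r values of genes found mainly in endothelium, such as Flt4, and those among Kdr, Flt1 and Flt4 rest largely on these units. Flt4 was most like Sox7, Grrp1 and Erg (Pearson r 0.995, 0.992 and 0.991), Flt1 like Tie1, Adgrf5 and Podxl (0.957, 0.957 and 0.956) and Kdr like Cd300lg, Scarf1 and Scarb1 (0.918, 0.905 and 0.896). Vegfd went with the fibroblast genes Ptgfr, Ogn and Srpx (0.976, 0.972 and 0.970). Vegfa was most like Pla2g4a (0.817), Inhba (0.780) and Ptgs2 (0.776), of which Pla2g4a and Ptgs2 encode enzymes of prostaglandin synthesis. Among the members, Flt1 and Flt4 were at r 0.878, Kdr and Flt4 at 0.833 and Kdr and Flt1 at 0.749, while Vegfa and Kdr were at -0.266.

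For Vegfb the nearest genes were Tmem9, 1110038B12Rik and Nthl1 (0.861, 0.857 and 0.856), for Vegfc Cuedc1, Plscr4 and Efnb1 (0.882, 0.846 and 0.839) and for Pgf R74862, Phldb1 and Exoc3l4 (0.880, 0.849 and 0.839). Nrp1 was nearest to Ptpra, Slc36a4 and Wdr11 (0.856, 0.829 and 0.823) and Nrp2 to Stx12, Mapk3 and Asap1 (0.867, 0.850 and 0.843).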

How the data were processed

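Single-cell 3′ RNA libraries of mouse 4T1 tumours were studied. The authors counted UMIs per gene and cell barcode with Cell Ranger and deposited the unscaled counts as 1 joined matrix. The version is given as 2.1.1 in the submitters' processing notes, 3.0.2 in the extract protocol and 6.1.2 in the file header, and the build as mm10. Coordinates came from GENCODE vM21 (GRCm38), in which all 55450 gene identifiers were found.

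Cells with at least 300 genes and at most 15% mitochondrial UMIs were kept. A cell was typed when UMIs of a marker list, scaled to 10000, and the number of different markers passed a threshold, set after seeing the data. No family member was used. Cells that passed 2 gates (728) or none (2764) were kept apart from the types. Levels by library are given for at least 15 cells, a minimum also chosen after seeing the data. Thinning drew 1000 UMIs per cell. Since barcodes could not be tied to samples, treatments were not compared and no test was run. The members and gene lists were chosen with earlier results of these data known. Named genes were the members, the fixed lists and markers, and the 3 genes most like each member by Pearson r. Protein sequences were not analysed here.

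Alternatives were other gene and mitochondrial limits, Leiden clusters, stricter gates, removal of high doublet scores, thinning, leaving out each library, and other pseudocounts and UMI minimums. The gates, intervals and thinning were tested on simulated data. Python 3.11.15, numpy 2.4.6, scipy 1.17.1, pandas 2.3.3, scanpy 1.11.5, scikit-learn 1.9.0, igraph 0.11.9 and matplotlib 3.10.9 were used.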

Additional observations from a re-analysis of the deposited data

How the results depend on the processing

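Of 120 shares of UMIs (10 members under 12 settings), 54 stayed within their counting interval and 66 moved, while 112 kept the leading cell type. The leading type here is that with the most UMIs. For Vegfc, Pgf, Nrp1 and Nrp2 it is not the type with the highest pooled level, and leads by level were not counted here. Other limits on genes and mitochondrial UMIs moved none of the shares of Vegfa, Kdr and Flt1. The fibroblast share of Vegfa, 53.4% as reported, was 58.0% with Leiden clusters, 45.2% with stricter gates, 54.6% after removal of the highest 5% of doublet scores (1715 cells in all) and 22.4% at 1000 UMIs per cell. Leaving out 1 library gave 50.2% (without library 2) to 59.3% (without library 1). The endothelial share of Kdr, 45.2% as reported, was 49.0% with Leiden clusters and 25.1% at 1000 UMIs per cell, and ranged from 23.1% (without library 2) to 71.3% (without library 4). That of Flt1, 40.2% as reported, was 44.7% with Leiden clusters, 42.0% without high doublet scores and 33.0% at 1000 UMIs per cell, and ranged from 24.2% (without library 2) to 59.2% (without library 1). The cause was not tested. Chosen after seeing the data, leaving out 1 library gave a monocyte share of Kdr of 8.00% (without library 4) to 56.3% (without library 2) and a tumour or epithelial share of Flt1 of 7.84% (without library 1) to 53.7% (without library 2). Without library 1 the tumour or epithelial share fell to 8.76% for Vegfb and 7.74% for Nrp2, and fibroblasts held the most UMIs of both. At 1000 UMIs per cell the fibroblast share was 25.8% for Nrp1, with macrophages holding the most UMIs, and 34.4% for Pgf. The tumour or epithelial share of Nrp2, 39.5% as reported, was 25.3% at that depth, and macrophages again held the most UMIs. With a pseudocount of 1 CPM, none of the 3 genes most like Pgf and 1 of 3 for Vegfb, Kdr and Flt1 were kept. No paired analysis was possible because no library could be tied to a sample and no test was made.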
